A study of Mus musculus with 24 samples.

Results

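The genes described here are 10 genes of the major histocompatibility complex (MHC) class I pathway, H2-Q7, H2-Q6, H2-Q4, H2-K1, H2-D1, H2-T23, B2m, Tap1, Tapbp and Nlrc5, out of 47069 gene identifiers in the count table. They were selected on the day 10 level of H2-Q7, which was higher with miR-125b, so that all values of the day 10 comparison are given as a description and without a test. The cells were Gata1s fetal liver cells of embryos at day 12.5 to 13.5 post coitum, from B6J.129(Cg) mice (Fezh/J) that carry Cas9 and EGFP behind the CAG promoter at Gt(ROSA)26Sor (allele tm1.1). All 8 groups, controls included, carried the guide sgGata1 as transgene1, and transgene2 was either miR-125b or miR-ctrl. Doxycycline at 1 µg/mL was given for 48 h (day 2), for 10 days, for 13 days, or until its withdrawal on day 10 with harvest on day 13, and each of these 4 conditions held 3 libraries per construct. The promoters of both transgenes are not given in the sources used here, nor is it given whether libraries came from separate embryos or cultures, so p-values measure the spread between these libraries, which may be technical.

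MHC class I molecules show peptides from inside the cell to T cells and natural killer cells. A heavy chain pairs with the light chain beta-2-microglobulin in the endoplasmic reticulum, the TAP transporter brings in peptides made by the proteasome, and tapasin holds the empty molecule at TAP until a peptide is bound. H2-K1 and H2-D1 encode the classical, highly expressed heavy chains of the mouse, the H2-Q genes encode non-classical chains of the Qa-2 group and its relatives, and H2-T23 encodes Qa-1, a ligand of inhibitory receptors on natural killer cells. NLRC5 is a transactivator that binds no DNA by itself and acts through factors on the X and Y boxes of class I promoters, and interferons raise the whole pathway. Megakaryocytes and platelets carry class I on their surface.

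The promoters of the heavy chain genes other than H2-T23, and of B2m, are shown because they hold the elements through which these genes are known to be read together. The runs below come from RefSeq (GRCm38.p6), are written 5′ to 3′ on the strand of the gene, and stop before the RefSeq start of the transcript. They are chr17:35439018-35439148 (plus strand) for H2-Q7, chr17:35424673-35424804 (plus) for H2-Q6, chr17:35379459-35379616 (plus) for H2-Q4, chr17:35262919-35263079 (plus) for H2-D1, chr17:34000348-34000462 (minus) for H2-K1 and chr2:122147529-122147643 (plus) for B2m. Capitals mark matches on either strand to GGGATTCCC (kappaB-like), TTTCNNTTC (like an interferon-stimulated response element), TGNTGAC (like an X2 box), CCAAT (the core of the Y box, which reads ATTGG on the other strand) and TATAAAG.
H2-Q7: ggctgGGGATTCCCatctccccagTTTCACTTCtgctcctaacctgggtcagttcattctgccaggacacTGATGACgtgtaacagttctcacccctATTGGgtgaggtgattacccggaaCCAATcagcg
H2-Q6: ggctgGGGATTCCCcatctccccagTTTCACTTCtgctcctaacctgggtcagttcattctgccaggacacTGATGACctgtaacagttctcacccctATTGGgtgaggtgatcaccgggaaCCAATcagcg
H2-Q4: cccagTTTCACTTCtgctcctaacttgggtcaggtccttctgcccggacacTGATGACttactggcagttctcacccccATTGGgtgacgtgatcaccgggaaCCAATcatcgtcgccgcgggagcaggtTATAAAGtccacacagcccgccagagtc
H2-D1: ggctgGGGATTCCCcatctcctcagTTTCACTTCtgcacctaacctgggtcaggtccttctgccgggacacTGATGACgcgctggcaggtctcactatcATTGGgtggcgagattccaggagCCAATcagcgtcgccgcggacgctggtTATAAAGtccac
H2-K1: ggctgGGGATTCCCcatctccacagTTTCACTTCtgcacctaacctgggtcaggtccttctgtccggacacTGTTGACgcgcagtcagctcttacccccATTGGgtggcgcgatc
B2m: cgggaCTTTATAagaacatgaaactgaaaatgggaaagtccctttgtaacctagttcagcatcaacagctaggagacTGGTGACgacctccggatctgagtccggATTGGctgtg
All 4 of the kappaB-like, response-element-like, X2-like and CCAAT letters were found in the promoter windows of H2-Q7, H2-Q6, H2-D1 and H2-K1. H2-Q4 had the same elements without the kappaB-like letters, and B2m had the X2-like and CCAAT letters and, on the other strand at position −153 from the start, the TATAAAG letters. Of 32851 RefSeq promoters of 300 bases, 0.353% held the kappaB-like letters, 7.52% the response-element-like letters, 14.1% the X2-like letters, 37.4% CCAAT and 3.72% TATAAAG. The TATAAAG letters lay 26 bases before the start in H2-D1 and 28 before it in H2-Q4, and were not in the windows of H2-Q7 and H2-Q6. In H2-K1 they lay 36 bases behind the 5′-most RefSeq start, outside the printed run. No match overlapped another, and a match describes letters and not a bound site. Only these letters were searched, so a missing match, as in B2m, does not show that an element of that kind is absent. RefSeq promoters were found for 9 of the 10 genes. The windows of H2-T23, Tap1 and Tapbp are not printed and held fewer of these letters. H2-T23 had X2-like letters on the other strand and CCAAT, without the kappaB-like and response-element-like letters. Tap1 and Tapbp had the CCAAT letters alone, in Tapbp on the other strand.

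In the GRCm38 annotation 8 of the 10 genes lie in or beside the MHC on chromosome 17. H2-K1 spans 33996017 to 34000347 on the minus strand, Tapbp 33915899 to 33929292 on the plus strand and Tap1 34187553 to 34197225 on the plus strand. H2-D1 spans 35262730 to 35267499, H2-Q4 35379617 to 35385290, H2-Q6 35424850 to 35430055 and H2-Q7 35439155 to 35443773, all on the plus strand. H2-T23 spans 36029773 to 36032855 on the minus strand. B2m lies on chromosome 2 at 122147686 to 122153083 and Nlrc5 on chromosome 8 at 94434356 to 94527272, both on the plus strand. Each value covers all exons of a gene.

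The heavy chain genes are near copies of each other, which limits what a count for 1 of them can mean. The coding sequence of H2-Q7 shared 95.4% of its aligned bases with H2-Q6, 97.0% with H2-Q5, 90.8% with H2-Q4 and 88.2% with H2-K1, and H2-K1 shared 91.5% with H2-D1. Of the 50-base windows of the annotated transcripts, 35.0% for H2-Q6, 36.4% for H2-Q4 and 26.5% for H2-Q7 also occurred in another gene. At 150 bases these shares were 5.99%, 9.87% and 5.90%, and they were 0% for H2-K1 and B2m. The read length and the treatment of reads with several positions are not given in the sources used here, so the 3 H2-Q genes are uncertain as single genes, and their values are also given as a sum with the other H2-Q genes. Tapbp shared 23.2% of its 50-base windows, mostly with Gm19412, an overlapping gene on the other strand that had 0 counts in all libraries. Tap1 overlaps Psmb9 on the other strand over 212 exon bases, and Tapbp overlaps Zbtb22 on its own strand over 149.

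**Figure D1:**
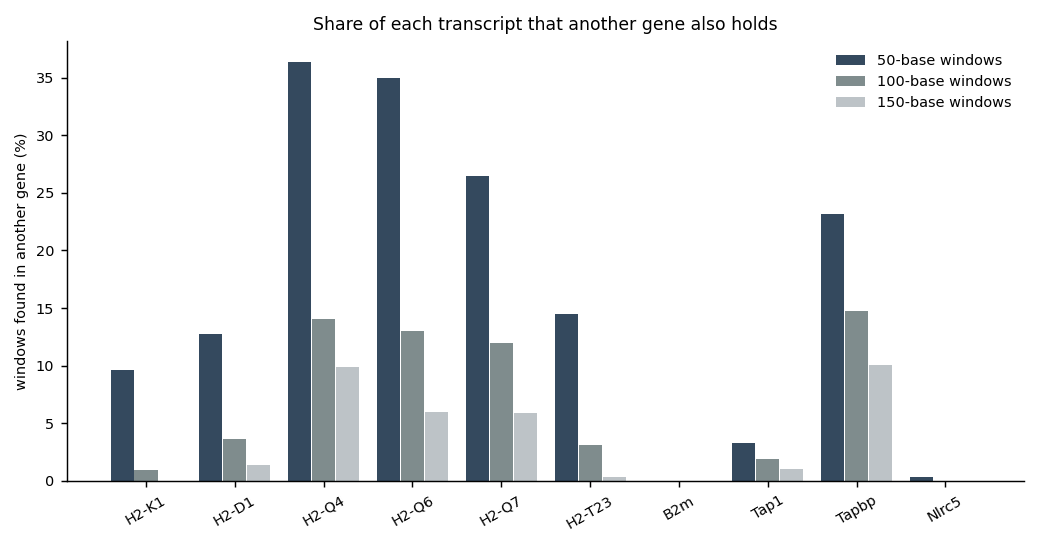
Percentage of the 50-, 100- and 150-base windows of each gene's annotated transcripts that also occur in a transcript of another gene (vertical axis, from 0; horizontal axis, the 10 genes; bar shades, window length). H2-Q4, H2-Q6, H2-Q7 and Tapbp stand highest at 50 bases, from 23.2% to 36.4%, and B2m is at 0.

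The libraries held 14694900 to 23755245 counts, and all 10 genes passed the filter on low counts. The lowest count of any of the 10 in a library was 29, for H2-Q6. Values are CPM, counts scaled to a common library total, after TMM scaling, and differences are fitted log2 fold changes with 1 standard error (SE). Whether groups overlap, and how same-numbered pairs differ, is given as a description. The share of all genes that lie apart in this way was not counted. The 12 megakaryocyte markers passed the filter and summed to between 3018 and 7550 CPM. The 8 hepatocyte markers summed to 2.01 to 4.88 CPM, with Ttr, Serpina1a and Fgb at 0 in all 24 libraries. The 10 endothelial and stromal markers summed to 28.4 to 73.8 CPM (Dcn and Lum at 0), the 12 lymphoid and natural killer markers to 82.3 to 1367 (Ms4a1 at 0) and 9 erythroid markers to 79.6 to 278 (Slc4a1 at 0). Arid3a, named as a target in the series title, was at 34.1 ± 6.56 CPM with miR-125b against 59.7 ± 8.15 in controls at day 2 (SD, n = 3 each), at 52.2 ± 6.15 against 61.0 ± 11.2 in the day 13 libraries labelled continued and at 31.2 ± 4.45 against 69.5 ± 6.2 in those labelled withdrawal. Its level was thus lower in the miR-125b libraries labelled withdrawal than in those labelled continued, so the day 13 groups are named by their labels throughout. In bulk RNA, fewer cells of a type and less RNA per cell cannot be told apart.

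Per kilobase of exon, averaged over the 24 libraries, B2m stood highest at 431 CPM, followed by the classical heavy chains H2-K1 at 162 and H2-D1 at 149. Tapbp at 20.02 and H2-T23 at 18.5 came next. Tap1 at 10.9, H2-Q4 at 10.8, H2-Q7 at 10.4 and H2-Q6 at 9.36 CPM per kilobase followed with overlapping ranges, and the transactivator gene Nlrc5 was lowest at 0.976. Over the libraries H2-Q7 ranged from 6.02 to 133 CPM, H2-Q6 from 1.84 to 65.9 and Nlrc5 from 2.68 to 17.1, whereas H2-D1 ranged from 276 to 548 and B2m from 247 to 652.

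H2-Q7, the gene that led to the choice, was high in all day 2 libraries. The 3 miR-125b libraries, numbered 1 to 3, had 93.4, 93.2 and 104 CPM at day 2 and the controls 64.8, 69.3 and 63.9. At day 10 the miR-125b libraries had 84.0, 38.3 and 133 CPM against 9.72, 20.7 and 12 in controls. The control arm was thus far lower at day 10 than at day 2, and the miR-125b arm held its level in libraries 1 and 3 and not in library 2. At day 13 the libraries labelled continued had 27.9, 11.6 and 47.9 CPM with miR-125b and 6.02, 18 and 12.4 in controls, so that the groups overlapped and library 2 went the other way. Those labelled withdrawal had 53.5, 19.4 and 41.3 CPM with miR-125b and 6.29, 16.8 and 12.1 in controls, with no overlap.

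H2-Q6, its neighbour upstream, followed H2-Q7 closely. Its values at day 2 were 40.6, 43.2 and 45.4 CPM with miR-125b and 27.8, 32.9 and 27.4 in controls, and at day 10 they were 30.9, 17.4 and 65.9 against 3.5, 8.8 and 7.05. At day 13 the libraries labelled continued had 13.8, 3.69 and 22.7 CPM against 2.72, 3.85 and 5.65, and those labelled withdrawal 22.2, 8.34 and 21.2 against 1.84, 6.54 and 4.56. The groups were apart at day 2, at day 10 and with withdrawal, and overlapped at day 13 continued. The correlation of H2-Q6 with H2-Q7 over the 24 libraries was r = 0.982, and their count ratio had a median of 0.433 with a range of 0.214 to 0.588. How far reads of the shared sequence tie these values to each other was not tested.

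The other heavy chains changed less. H2-Q4 had group means of 38.1 ± 5.58 CPM with miR-125b and 34.5 ± 1.69 in controls at day 2 (SD, n = 3 throughout), 45.8 ± 13.0 and 21.1 ± 6.25 at day 10, 22.1 ± 6.82 and 21.0 ± 4.62 at day 13 continued and 23.3 ± 4.32 and 19.1 ± 10.7 with withdrawal. Its control library 1 of withdrawal, at 6.99 CPM, was the lowest of all 24. H2-K1 had 535 ± 47.6 and 487 ± 39.3 CPM at day 2, 643 ± 92.9 and 439 ± 85.5 at day 10, 417 ± 37.5 and 417 ± 92.2 at day 13 continued and 447 ± 21.7 and 416 ± 137 with withdrawal. Control library 1 was the lowest of its group at day 10 and in both day 13 groups, at 359, 313 and 264 CPM, and all day 13 groups of H2-K1 overlapped. H2-D1 stayed between 337 ± 53.7 and 463 ± 77.5 in all 8 groups. H2-T23, in which library 1 was lowest in each group, had 58.4 ± 24.9 and 60.8 ± 11.7 CPM at day 2 and 35.9 ± 10.7 and 59.2 ± 19.6 with withdrawal, and its groups overlapped in all 4 conditions.

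The light chain gene B2m had 382, 408 and 524 CPM with miR-125b at day 2 and 325, 340 and 356 in controls. With withdrawal it had 410, 321 and 427 CPM against 293, 292 and 325, and only library 2 of miR-125b lay inside the range of the controls. At day 10 its group means were 506 ± 150 and 346 ± 36.7 CPM, and at day 13 continued 339 ± 84.2 and 304 ± 31.4, both with overlap. Tap1 stood at 83.6 ± 26.8 against 52.3 ± 3.0 CPM at day 10 and at 54.5 ± 3.81 against 53.7 ± 9.28 with withdrawal.

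**Figure D2:**
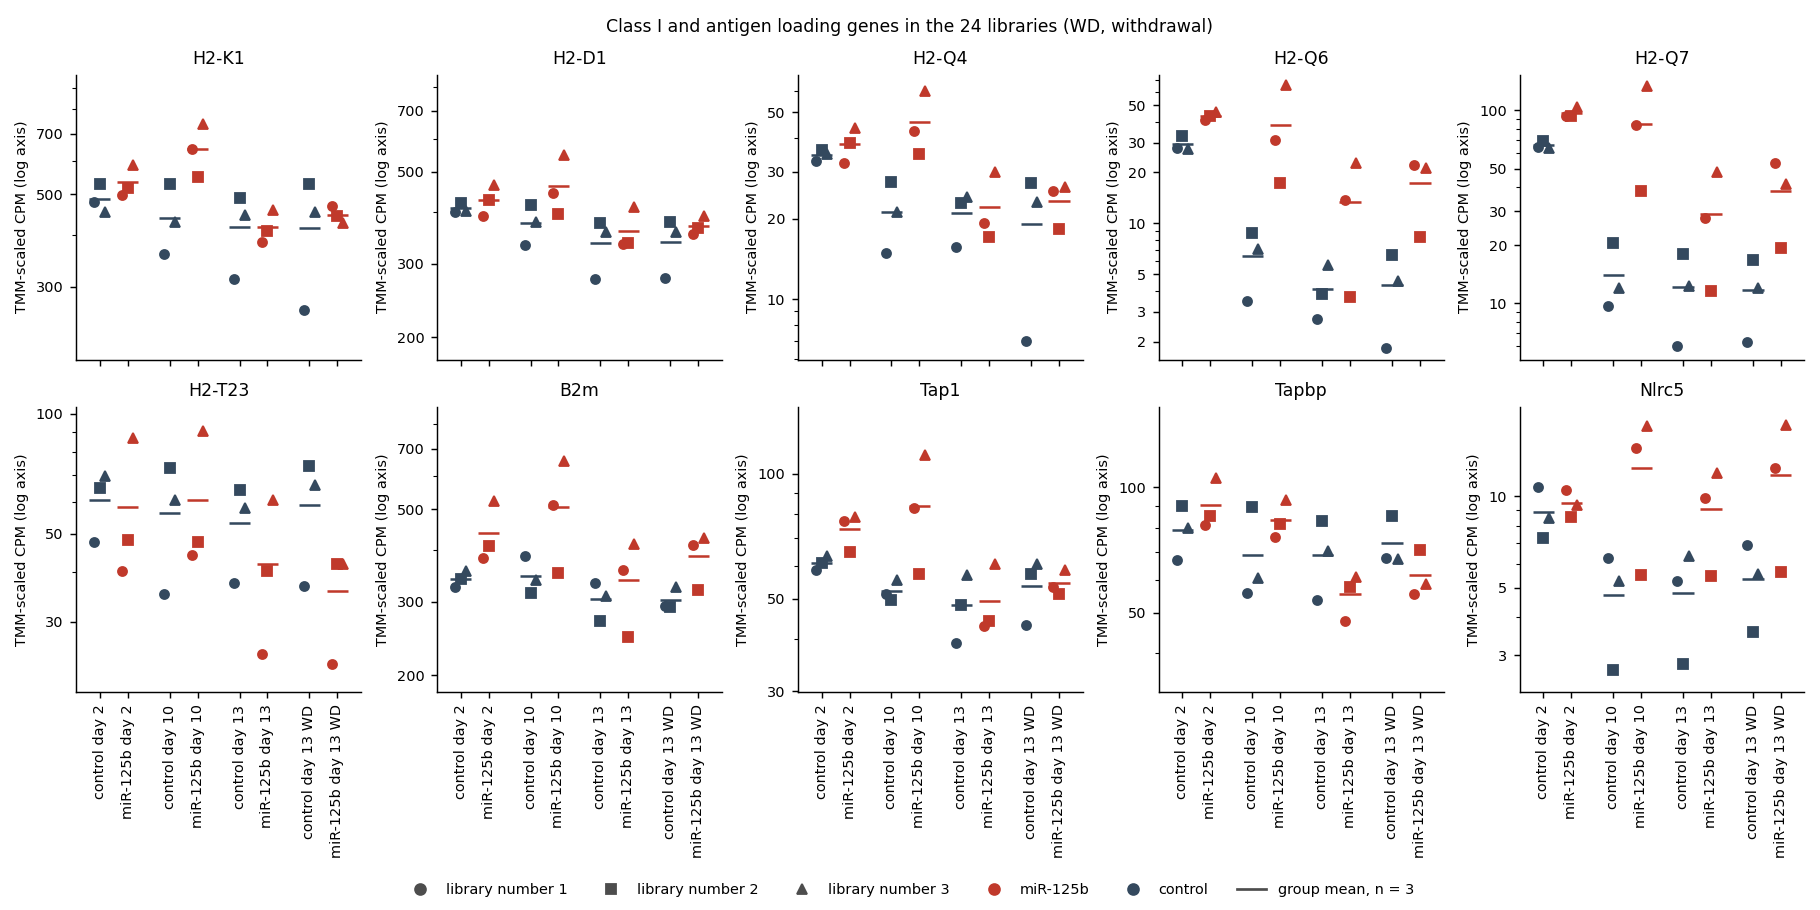
TMM-scaled CPM (vertical axes, log scale, 1 panel per gene) of the 10 genes in each library of the 8 groups (horizontal axes; blue, control; red, miR-125b; symbol, library number; line, group mean of 3; WD, withdrawal). H2-Q7 and H2-Q6 fall from day 2 in the control arm and stay higher in most miR-125b libraries, whereas H2-K1 and H2-D1 move little.

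Day 10 with miR-125b, the comparison behind the choice, read as follows. H2-Q7 differed from control by 2.59 ± 0.55 (log2 ± SE) and H2-Q6 by 2.56 ± 0.60, folds of 6.04 and 5.91. Nlrc5 differed by 1.37 ± 0.44, H2-Q4 by 1.12 ± 0.35, Tap1 by 0.68 ± 0.19, H2-K1 by 0.55 ± 0.20 and B2m by 0.55 ± 0.19. H2-D1 (0.30 ± 0.14), Tapbp (0.29 ± 0.18) and H2-T23 (0.11 ± 0.40) were nearest to control. All 10 were higher with miR-125b, with a median of 0.61 beside 0.00 for all genes tested, and 0.872% of all genes were called in this comparison, from which nothing is read here.

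A further comparison is how the 10 genes stood between miR-125b and control at day 2 and at day 13, in libraries that the choice did not use. These are not independent of the day 10 libraries, since same-numbered libraries deviated together across the groups (r 0.163 to 0.781 over 84 pairs). For H2-Q7, miR-125b library 2 was the lowest of its group at day 10 and in both day 13 groups. At day 2, 9 of 10 were higher with miR-125b with a median log2 difference of 0.17, and none passed the test of edgeR, where 0% of all 13419 genes were called. The members' lowest edgeR adjusted p was 0.940, for B2m at 0.36 ± 0.19. No member had an unadjusted edgeR p under 0.05, beside 709 of all 13419 genes, and DESeq2 called 0 of 10. H2-Q7 (0.55 ± 0.51) and H2-Q6 (0.55 ± 0.56) were higher in each same-numbered pair without overlap, as were B2m and Tap1, which had 76.8, 64.9 and 78.5 CPM against 58.5, 60.9 and 63.3. How many of all genes lay apart in the same way was not counted, so nothing is read from this.

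In the day 13 libraries labelled continued, 8 of 10 were higher with a median of 0.09, beside −0.02 for all genes. H2-Q6 differed by 1.72 ± 0.60, H2-Q7 by 1.27 ± 0.54 and Nlrc5 by 0.91 ± 0.44, and no member had an edgeR adjusted p under 0.999. Unadjusted, 2 of 10 had an edgeR p under 0.05, beside 388 of all 13419 genes. DESeq2 called 0 of 10, and edgeR called 0% of all genes. In the libraries labelled withdrawal 8 of 10 were higher with a median of 0.21. Here H2-Q6 differed by 1.98 ± 0.60 (edgeR adjusted p = 0.287), H2-Q7 by 1.69 ± 0.54 (0.339) and Nlrc5 by 1.13 ± 0.44 (0.452), and H2-T23 stood at −0.72 ± 0.40 (0.649). Thus 0 of 10 passed where 0.119% of all genes did. Unadjusted, 3 of 10 had an edgeR p under 0.05, beside 1147 of all 13419 genes. DESeq2 called 0 of 10, beside 89 of 14646 genes. With the replicate number as a block Nlrc5 passed at 1.07 ± 0.23 (edgeR adjusted p = 0.0217), 1 of 10 beside 1.86% of all genes.

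Nlrc5 differed in the same direction in every same-numbered pair of day 13, and the share of all genes that did so was not counted. At day 13 continued it was at 9.88, 5.48 and 11.9 CPM with miR-125b and 5.25, 2.81 and 6.37 in controls, and with withdrawal at 12.3, 5.66 and 17.1 against 6.93, 3.58 and 5.55. The groups overlapped, since library 2 was lowest in each of them, and the same-numbered pairs were higher with miR-125b by 0.66 to 1.62 on the log2 scale. At day 2 the values were 10.5, 8.51 and 9.37 CPM against 10.7, 7.27 and 8.50, and the pairs went both ways. The replicate number accounted for 78.0% of the within-group variation of Nlrc5 and 77.6% of that of H2-T23, against 11.8% for H2-Q7 and a median of 32.4% over all genes.

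Averaged over day 2 and both day 13 conditions, with the day 10 libraries outside the contrast, H2-Q6 was higher with miR-125b by 1.42 ± 0.34 (edgeR adjusted p = 0.107), H2-Q7 by 1.17 ± 0.31 (0.141), Nlrc5 by 0.71 ± 0.25 (0.299) and B2m by 0.29 ± 0.11 (0.342). None of the 10 passed where 0.186% of all genes did. Unadjusted, 4 of 10 had an edgeR p under 0.05, beside 1420 of all 13419 genes. The block brought Nlrc5 (0.71 ± 0.13, edgeR adjusted p = 0.00662) and H2-Q6 (1.39 ± 0.33, 0.0347) past the threshold, 2 of 10 beside 2.91% of all genes. DESeq2 brought H2-Q6 (adjusted p = 0.00826) and H2-Q7 (0.0236) past it, 2 of 10 beside 142 of 12823 genes. H2-Q6 also passed in edgeR without the miR-125b library 2 of day 13 continued (1.57, adjusted p = 0.0441). H2-K1, H2-D1, Tap1 and H2-Q4 lay between 0.08 and 0.17, and Tapbp (−0.12 ± 0.11) and H2-T23 (−0.38 ± 0.23) were lower. These averages include the day 2 and day 13 values above and are no separate support.

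The H2-Q genes were also taken as 1 gene, because of their shared sequence. The counts of 8 H2-Q genes summed to 192 ± 11.6 CPM with miR-125b and 142 ± 7.70 in controls at day 2 (SD, n = 3), 188 ± 96.7 and 45.7 ± 15.4 at day 10, 71.4 ± 36.7 and 40.7 ± 12.1 at day 13 continued and 87.5 ± 32.5 and 38.8 ± 20.4 with withdrawal. The averaged difference outside day 10 was 0.80 ± 0.27 (edgeR adjusted p = 0.267). H2-Q5, a near copy outside the 10, had 10.4 ± 0.97 against 9.61 ± 2.39 CPM at day 2 and 6.53 ± 2.42 against 2.63 ± 1.73 with withdrawal.

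**Figure D3:**
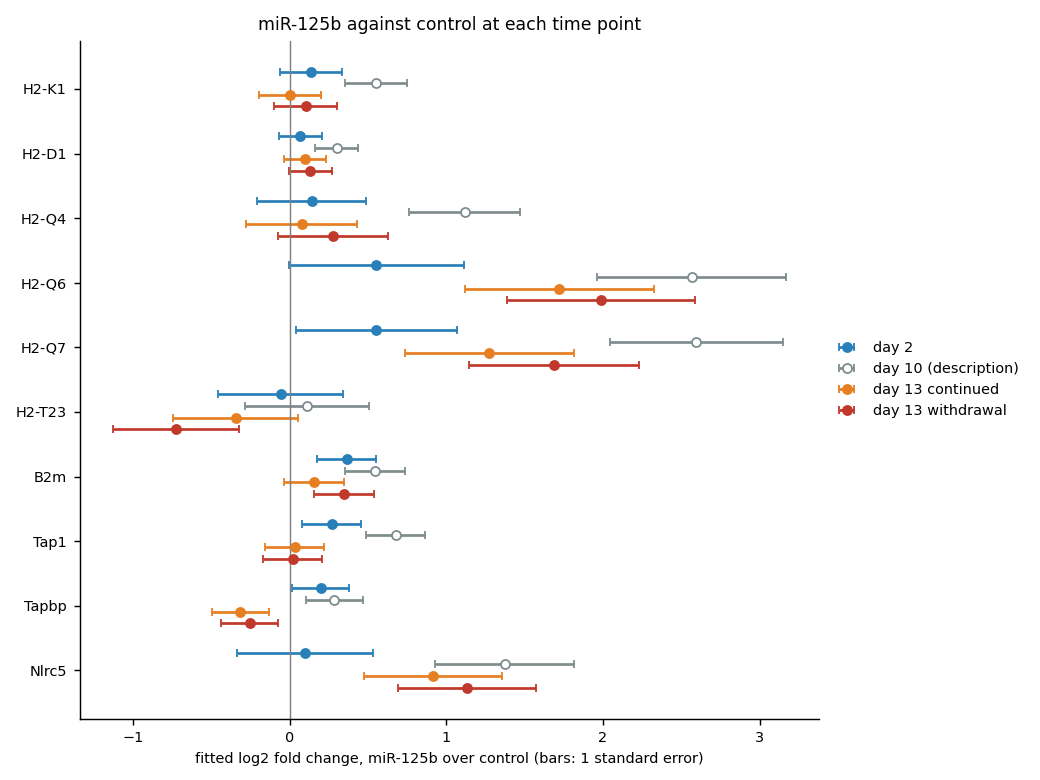
Fitted log2 fold change of miR-125b over control (horizontal axis; bars, 1 standard error) for the 10 genes (vertical axis) at day 2, day 10 (open symbols, a description), day 13 continued and day 13 withdrawal. H2-Q6, H2-Q7 and Nlrc5 lie right of 0 at day 13, from 0.91 to 1.98, and H2-T23 and Tapbp lie left of it.

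Cell type markers differed between the arms beside these values. Of 11 tested granulocyte and macrophage markers, 10 were higher with miR-125b in the withdrawal comparison with a median log2 difference of 1.96. Mpo, myeloperoxidase, passed there (245 to 488 counts per library against 1 to 5, edgeR adjusted p = 0.00435), and with the block Ctsg (25 to 46 counts against 0 to 2, adjusted p = 0.00777) and Ms4a3 (57 to 90 against 8 to 35, 0.0147) passed as well. In the average over day 2 and day 13, 10 of 11 were higher with a median of 1.80. Mpo (edgeR adjusted p = 0.000447) and Ctsg (0.0382) passed, beside 0.186% of all genes, and 5 did with the block, beside 2.91%. At day 13 continued 9 of 11 were higher with a median of 1.24, and at day 2 10 of 11 with a median of 0.72, none of them called. The 14 markers of the list summed to 59.3 to 74.0 CPM with miR-125b and 30.3 to 51.6 in controls with withdrawal, to 43.4 to 61.9 against 27.9 to 54.7 at day 13 continued and to 58.9 to 85.9 against 38.2 to 54.3 at day 2. Elane, Ly6c2, Adgre1 and Csf3r of this list were under 1 CPM in all libraries.

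Of 8 tested mast cell and basophil markers Prss34 (edgeR adjusted p = 0.0187) and Mcpt8 (0.0383) passed in that average, both higher with miR-125b. The sum of the 8 markers overlapped between the arms at day 13. It was 52.4 to 289 CPM with miR-125b and 47.8 to 292 in controls with withdrawal. At day 13 continued it was 55.9 to 255 against 60.2 to 296, and at day 2 it was 168 to 295 against 132 to 162. With withdrawal Prss34 had 92 to 311 counts against 0 to 15 and Mcpt8 56 to 156 against 0 to 9, and both passed with the block (edgeR adjusted p = 0.00141 and 0.00829). At day 13 continued the block called Mpo (edgeR adjusted p = 0.00447) and Prss34 (0.0171), beside 0.0149% of all genes. The megakaryocyte markers were lower with miR-125b in 10 of 12 cases with withdrawal (median −0.57), in 11 of 12 at day 13 continued (−0.34) and in 10 of 12 in the average (−0.27). None passed without the block, and with it Gp9, Gp1bb and Gp1ba, subunits of the platelet receptor for von Willebrand factor, were called lower with withdrawal (−0.68 ± 0.15, −0.84 ± 0.20 and −0.66 ± 0.16, edgeR adjusted p = 0.0255, 0.0331 and 0.0388) and in the average. The megakaryocyte list summed to 3457 to 5431 CPM with miR-125b and 3102 to 7550 in controls with withdrawal. At day 2 its sum was not lower with miR-125b, at 4659 to 6434 CPM (median 6410) against 4455 to 6276 (median 4878). The block also called the haemoglobin gene Hba-a1 lower with withdrawal (−1.55 ± 0.35, edgeR adjusted p = 0.0325). The part of these markers in the differences of the class I genes was not tested.

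Between the labelled withdrawal and the continued doxycycline none of the 10 genes passed the test in either arm. In the miR-125b arm 9 of 10 were higher with withdrawal, with a median of 0.15, and H2-Q7 differed by 0.39 ± 0.52 and Nlrc5 by 0.36 ± 0.43. In the control arm 6 of 10 were higher with a median of 0.05, and H2-Q7 differed by −0.03 ± 0.54. The interaction of the arms with withdrawal was 0.41 ± 0.75 for H2-Q7, 0.26 ± 0.83 for H2-Q6 and 0.21 ± 0.62 for Nlrc5, and their intervals are wide. In these 3 comparisons edgeR called 0 of 10 members and 0% of all genes, no member had an unadjusted p under 0.05, and DESeq2 called 0 of 10.

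H2-Q6 and H2-Q7 fell between day 2 and day 13 in the control arm, and Tapbp fell in the miR-125b arm. Day 13, taken as the mean of both conditions, was set against day 2 within each arm, and length of culture and length of doxycycline cannot be told apart here. In the control arm all 10 genes were lower at day 13, with a median of −0.27 beside 0.01 for all genes. H2-Q6 fell by 2.80 ± 0.48 on the log2 scale (edgeR adjusted p = 0.0149) and H2-Q7 fell by 2.47 ± 0.44 (0.0208), to 0.144 and 0.181 times the day 2 level. The 6 control libraries of day 13 lay below all 3 of day 2 for both genes, and these were the 2 of 10 that passed, beside 0.276% of all genes. With the block Nlrc5 passed as well, falling by 0.85 ± 0.20 (adjusted p = 0.0358), 3 of 10 beside 1.45%. H2-Q4 (−0.78 ± 0.30) and H2-D1 (−0.27 ± 0.12) were lower without passing, and H2-K1 stood at −0.23 ± 0.17. Beside this, S100a9 (14 to 25 counts per library at day 2 and 0 in all 6 of day 13, edgeR adjusted p = 0.00430) and S100a8 (12 to 20 counts, then 0 to 1, 0.0302), of 11 granulocyte and macrophage markers tested, fell in the same control libraries. The sum of that list lay at 38.2 to 54.3 CPM at day 2 and 27.9 to 54.7 at day 13 in these libraries. Their part in the fall of H2-Q6 and H2-Q7 was not tested.

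The calls of H2-Q6 and H2-Q7 in controls each held in 5 of the 9 fits that left out 1 library and did not use the block. For H2-Q7 they were lost without control library 2 (−2.43, edgeR adjusted p = 0.141) or 3 (−2.49, 0.131) of day 2, and without library 1 (−2.30, 0.0624) or 3 (−2.48, 0.0505) of day 13 continued. For H2-Q6 they were lost without control library 2 (−2.71, edgeR adjusted p = 0.123) or 3 (−2.85, 0.106) of day 2, and without library 1 (−2.69, 0.0624) or 2 (−2.78, 0.0524) of day 13 continued. The differences themselves stayed between −3.01 and −2.30. As a sum the H2-Q genes differed by −1.84 ± 0.38 and did not pass (edgeR adjusted p = 0.0561).

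In the miR-125b arm 9 of 10 were lower at day 13 with a median of −0.55 beside 0.00 for all genes. Tapbp, which encodes tapasin, passed, falling by 0.63 ± 0.15 (edgeR adjusted p = 0.0311), 1 of 10 beside 2.87% of all genes. Its libraries were at 81.0, 85.4 and 105 CPM at day 2, at 47.8, 57.6 and 60.8 at day 13 continued and at 55.4, 70.8 and 58.7 with withdrawal, so that all 6 lay below day 2. H2-Q7 was lower by −1.54 ± 0.43 (adjusted p = 0.0590), H2-Q6 by −1.50 ± 0.47 (0.0844) and Tap1, the peptide transporter subunit, by −0.50 ± 0.16 (0.0852). With the block 5 of 10 fell, beside 12.9% of all genes: Tapbp, Tap1 (−0.51 ± 0.12, edgeR adjusted p = 0.00802), H2-T23 (−0.59 ± 0.17, 0.0253), H2-Q6 (−1.57 ± 0.44, 0.0291) and H2-Q7 (−1.56 ± 0.44, 0.0304). Nlrc5 stood at 0.13 ± 0.38 and was the gene not lower.

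The Tapbp call held in 2 of the 9 fits that left out 1 library and did not use the block. It was lost without any of the miR-125b libraries of day 2 (adjusted p = 0.0533, 0.0775 and 0.202 without library 1, 2 and 3, edgeR), without library 1 (0.0743) or 2 (0.0531) of day 13 continued and without library 1 (0.0637) or 3 (0.0686) of withdrawal, and its difference stayed between −0.70 and −0.51. H2-Q7 passed in this arm without library 3 of day 13 continued (−1.82, edgeR adjusted p = 0.0405). DESeq2 called H2-Q7 (adjusted p = 0.0241) and Tapbp (0.00646).

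Cell type markers moved both ways in the same miR-125b libraries. Ctsg rose from 2 to 4 counts per library at day 2 to 20 to 25 at day 13 continued and 25 to 46 with withdrawal (edgeR adjusted p = 0.0433). Prss34 rose from 3 to 11 counts to 90 to 222 and 92 to 311 (0.0318). The sum of its mast cell and basophil list did not rise with it. That sum was 168 to 295 CPM at day 2, 55.9 to 255 at day 13 continued and 52.4 to 289 with withdrawal. The 12 megakaryocyte markers had a median of −0.56, with 11 of 12 lower and none called. With the block 8 megakaryocyte markers fell, 2 granulocyte and macrophage markers rose and 2 fell, and 2 endothelial and stromal markers fell, beside the 12.9% of all genes. Of the mast cell and basophil list Prss34 and Mcpt8 rose with the block and Ms4a2 fell (−1.95 ± 0.54, edgeR adjusted p = 0.0298). Gzmb of the lymphoid list rose (edgeR adjusted p = 0.0145), and Hbb-bt of the erythroid list fell (0.0144). The part of the markers in the lower class I values was not tested.

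The fall with time was not shown to differ between the arms. The interaction was 1.3 ± 0.70 for H2-Q6 (edgeR adjusted p = 0.962), 0.93 ± 0.64 for H2-Q7 (0.973), 0.93 ± 0.53 for Nlrc5 (0.962) and −0.48 ± 0.22 for Tapbp (0.962). None of the 10 passed, and 0% of all genes did. Unadjusted, 1 of 10 had an edgeR p under 0.05, beside 680 of all 13419 genes, and DESeq2 called 0 of 10.

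**Figure D4:**
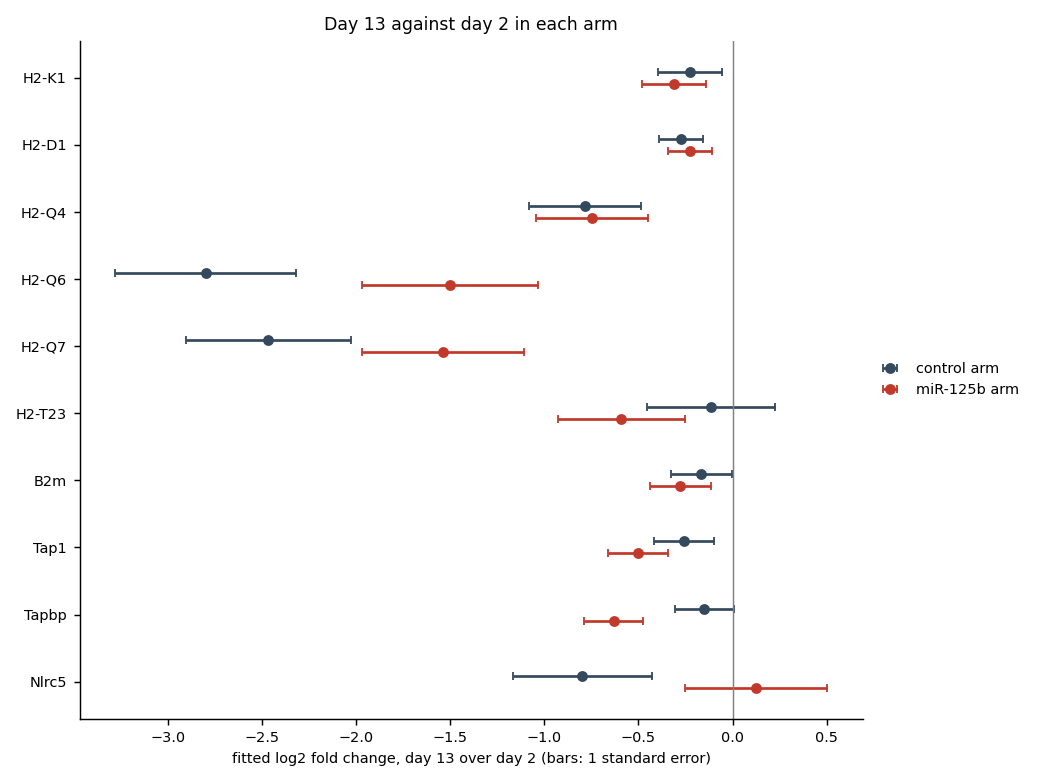
Fitted log2 fold change of day 13 (mean of continued and withdrawal) over day 2 (horizontal axis; bars, 1 standard error) for the 10 genes (vertical axis) in the control arm and the miR-125b arm. H2-Q6 and H2-Q7 are lowest in both arms, at −2.80 and −2.47 in controls and −1.50 and −1.54 with miR-125b.

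Genes around the class I pathway were read from lists. Of 15 tested genes of peptide supply and loading, 1 passed over time in the miR-125b arm, beside 2.87% of all genes. It was Psme3, an activator of the proteasome, at 0.31 ± 0.08 (edgeR adjusted p = 0.0396), and the list's median was 0.08. With the block the immunoproteasome subunits Psmb9 (−0.62 ± 0.14, adjusted p = 0.00734) and Psmb8 (−0.52 ± 0.12, 0.00802) and Psme1 (−0.32 ± 0.08, 0.0105) fell. Lap3 and Psme3 rose with it, so that 2 were higher and 3 lower, beside 12.9% of all genes in either direction. None of the 15 passed in the other tested comparisons. Of 10 tested other class I genes none passed. With the block H2-T22 fell in the miR-125b arm (−0.55 ± 0.14, edgeR adjusted p = 0.0161), beside the 12.9%, and H2-Q5 in controls (−1.90 ± 0.44, 0.0400), beside 1.45%.

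Of the 20 tested regulators of class I promoters none passed. Over time in the miR-125b arm their median was 0.00, and with the block 3 rose and 2 fell, beside 12.9% of all genes. Among them was Rfx5 of the X box complex (0.52 ± 0.14, edgeR adjusted p = 0.0198), which rose. In the withdrawal comparison between the arms Ciita, the class II transactivator, was lower with the block (1 to 4 counts per library against 13 to 25, edgeR adjusted p = 0.0358). In the average Nfyc, a subunit of the factor that binds the Y box, was higher with the block (0.22 ± 0.06, edgeR adjusted p = 0.0352). Of the 7 tested interferon ligands and receptors none passed without the block. With it Tyk2 was lower in the average (−0.22 ± 0.06, edgeR adjusted p = 0.0292) and Ifngr1 over time in the miR-125b arm (−0.32 ± 0.11, 0.0496), and Ifng had 0 counts in every library. The block called 1.86% of all genes with withdrawal, 2.91% in the average and 12.9% over time in the miR-125b arm.

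Interferon-stimulated genes were lower at day 13 beside the class I genes. Of the 30 tested, 24 were lower over time in the miR-125b arm with a median of −0.57, and 5 passed, all lower, beside 2.87% of all genes in either direction. They were Gbp2, a guanylate-binding protein (−1.42 ± 0.21, edgeR adjusted p = 0.00385), Isg20 (−0.68 ± 0.15, 0.0200), Igtp (−1.09 ± 0.25, 0.0247), Xaf1 (−1.31 ± 0.35, 0.0450) and Oas2 (−2.24 ± 0.60, 0.0476). With the block 18 fell, beside 12.9% of all genes. In controls 26 of 30 were lower with a median of −0.28, none passed, and 3 fell with the block, beside 1.45%. Between the arms at day 13 these genes were mostly lower with miR-125b, where H2-Q7 and H2-Q6 were higher. In all, 25 of 30 were lower with miR-125b in the libraries labelled continued, with a median of −0.26, and 22 of 30 with withdrawal, with a median of −0.28, where Gbp2 passed (−1.40 ± 0.25, edgeR adjusted p = 0.0259) and 3 genes passed with the block, beside 1.86% of all genes. In the average over day 2 and day 13, 24 of 30 were lower with a median of −0.20, none passed, and 5 were called lower with the block, beside 2.91%. Whether the lists and the H2-Q genes differ in this was not tested. At day 10 their median was 0.01. The summed level of the 32 genes in the list lay between 548 and 984 CPM over all groups.

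MHC class II genes, which serve the presentation of outside antigens, were low, with H2-Aa, H2-Eb1, H2-Eb2 and Cd74 under 1 CPM in all libraries. All 7 tested were lower over time in the miR-125b arm, with a median of −0.92. H2-Oa passed (−0.92 ± 0.22, edgeR adjusted p = 0.0296), beside 2.87% of all genes, and 5 fell with the block, beside 12.9%. In controls 6 of 7 were lower with a median of −0.34, and none passed with or without the block. The 11 genes of the list summed at day 2 to 44.2 to 61.8 CPM with miR-125b and 35.2 to 37.4 in controls. Between the arms 6 of 7 were higher with miR-125b at day 2, with a median of 0.55. At day 13 continued 3 of 7 were higher (−0.098) and with withdrawal 5 of 7 (0.24), and none passed without the block.

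By likeness over the 24 libraries the genes nearest to H2-Q7, the 10 aside and with an average log2 CPM of at least 2, were H2-Q5 (r = 0.964), Slc30a7 (0.868), Arhgef40 (0.858), Psmb9 (0.841) and Usp18 (0.841). Those nearest to H2-K1 were Bst2 (r = 0.958), Ampd2 (0.910), Ucp2 (0.909), Fkbp1b (0.904) and Mapk3 (0.898). Among the 10 genes H2-K1 and H2-D1 had r = 0.929, and Nlrc5 had r = 0.751 with B2m, 0.647 with H2-Q7 and −0.23 with H2-T23. These correlations share groups and library numbers and describe these 24 libraries only.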

How the data were processed

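Total RNA of 24 libraries was sequenced, and the table the authors deposited gives raw counts of reads, not normalized, with each gene in a row. The submitters' processing notes name fastp, HISAT2 2.0.5, featureCounts and mm10. The annotation release, read length, strand setting and treatment of reads with several positions are not given in the sources used here. Of 47069 Ensembl identifiers, 46488 were matched to names in GENCODE M21 (GRCm38). The 10 genes and all gene lists were chosen with earlier results of these data known.

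edgeR 4.0.16 (R 4.3.3) quasi-likelihood tests, two-sided, used 1 fit to all 24 libraries with 8 group coefficients, TMM scaling, filterByExpr (13419 genes left, 16 residual degrees of freedom) and Benjamini-Hochberg adjustment over those genes, with a threshold of 0.05. SEs were derived from the F statistic. The script was tested on simulated data. DESeq2 1.42.0, other scalings and filters, and leaving out each library were alternatives. The labels give the numbers 1 to 3 in every group without saying what a number shares. Values were taken as deviations from the group mean, which ties the libraries of a group to each other. The median r of -0.304 for different numbers is thus no separate support. All 84 same-numbered pairs of libraries from different groups deviated together (r 0.163 to 0.781, median 0.475), so the numbers pair the libraries. The main tests and the fits without 1 library did not use this pairing. A fit with the number as a block is printed where it changes a call of the 10 genes, and for the lists as counts with examples.

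All 10 genes were named. From each list up to 4 genes that passed in a tested comparison were named by the lowest adjusted p, and for H2-Q7 and H2-K1 the 5 genes most correlated with them. Genes named only with the block, Oas2, the near copy H2-Q5 and the marker genes were chosen after their values were seen. Motif letters were searched on both strands of 300-base promoters.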

Additional observations from a re-analysis of the deposited data

How the results depend on the processing

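The numbers of genes called depend on the fit. At day 2 DESeq2 called 2 genes (0 in the edgeR fit). At day 13 continued the replicate block called 2, the newer quasi-likelihood estimate 2 and DESeq2 3 (0). With withdrawal the block called 249, no filter 10, the fit without the day 10 libraries 8, the newer estimate 31 and DESeq2 89 (16), and the block called 1 of the 10 class I genes (0). For the average outside day 10 the block called 390 and DESeq2 142 (25), and each called 2 of the 10 (0). Withdrawal against continued gave 7 with the block and 3 with DESeq2 in the miR-125b arm (0), and 1 and 8 in controls (0). Day 13 against day 2 with miR-125b gave 1736 with the block, 227 without a filter and 809 with DESeq2 (385), and of the 10 genes 5 with the block, 2 with the newer estimate and 2 with DESeq2 (1). In controls it gave 194 with the block and 147 with DESeq2 (37). Beyond these, the replicate block changed the call of no gene among the 10 other than those given with their block values in the results. Summing the H2-Q genes gives no count of the 10.

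Without 1 library at a time, genes called ranged from 5 to 15 (withdrawal), 13 to 69 (average), 93 to 310 (day 13 against day 2, miR-125b) and 6 to 56 (controls), and of the 10 genes from 0 to 1 (average), 0 to 2 (miR-125b over time) and 0 to 2 (controls). Signs turned in some of these fits for 13 differences, none of them called. At day 2 they were H2-T23 (−0.46 to 0.15) and Nlrc5 (−0.028 to 0.25). At day 13 continued they were B2m (−0.0088 to 0.34), H2-D1 (−0.022 to 0.19), H2-K1 (−0.16 to 0.14), H2-Q4 (−0.20 to 0.23) and Tap1 (−0.14 to 0.17). With withdrawal they were H2-K1 (−0.14 to 0.32), H2-Q4 (−0.11 to 0.62) and Tap1 (−0.11 to 0.12). The rest were H2-K1 in the average (−0.00088 to 0.15), H2-T23 over time in controls (−0.27 to 0.0087) and Nlrc5 over time with miR-125b (−0.062 to 0.30). Where these fits leave 2 libraries in a group, the spread comes from all groups. The cause of these changes was not tested. Depth limits Nlrc5 (46 to 320 counts per library) and the low libraries of H2-Q6 (29 to 1220).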
